A study of Mus musculus with 14 samples.

Results

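Transcript levels of the AP-2 genes *Tfap2a*, *Tfap2b* and *Tfap2c* and of the spalt-like genes *Sall1*, *Sall2*, *Sall3* and *Sall4* were followed in 5 cell populations sorted from mouse forelimb buds. These 7 genes were taken by name from a count table of 24454 genes and 14 RNA-seq libraries, and all 7 passed the filter on low counts, which kept 15125 genes. The embryos carried an EGFP reporter of the chondrogenic transcription factor *Sox9* on a mixed Swiss Albino background, and each library came from the pooled buds of embryos of both sexes. S9- and S9+ denote cells without and with the reporter. Dead cells and cells with surface markers of endothelium, blood or epithelium were removed in every sort. From buds at E10.5 came 3 libraries each of S9-JAG1+ limb bud mesenchymal progenitors (LMPs), which carry the Notch ligand JAG1, of S9-Pαhi LMPs, which lack JAG1 and SCA-1 and have high PDGFRα, and of S9+Pαhi osteo-chondrogenic progenitors (OCPs). A further 2 libraries held S9-SCA-1+ cells, also without JAG1. The 3 libraries of S9+COL2+ chondroblasts came from buds at E11.5, so that in every comparison with them population and stage cannot be told apart.

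AP-2 proteins bind GC-rich palindromes as dimers and act with CITED coactivators, and KCTD proteins inhibit them. AP-2α is known for its roles in neural crest, face and limb, AP-2β for kidney, limb and the ductus arteriosus, and AP-2γ for trophoblast and germ cells. Sall proteins are zinc finger factors related to Drosophila spalt, whose zinc fingers bind short A/T-rich DNA and which recruit the NuRD co-repressor complex. *SALL1* and *SALL4* mutations cause human syndromes with malformed hands or forearms, *Sall1* and *Sall3* are expressed in distal limb mesenchyme, and *Sall4* also serves pluripotent cells. *Sall2* is the most diverged of the family.

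The genes lie on 6 mouse chromosomes (GRCm38, mm10). *Tfap2b* is at chr1:19208908-19238845 on the plus strand, *Tfap2a* at chr13:40713802-40738238 and *Sall1* at chr8:89027242-89044162, both on the minus strand. The 250 bases before a RefSeq start (GRCm38.p6) are shown for *Tfap2b* and *Sall1*, the members whose levels ran most closely together, and for *Tfap2a*, the AP-2 gene with the most even levels. The *Tfap2b* window is chr1:19211804-19212053 (plus strand), between exons of longer *Tfap2b* transcripts. The *Sall1* window is chr8:89044163-89044412 (minus strand), outside annotated genes. The *Tfap2a* window is chr13:40734921-40735170 (minus strand), between exons of longer *Tfap2a* transcripts, and it overlaps an exon of the antisense gene *Gm26688*. Capitals mark matches to 4 palindromic motifs, read on both strands at once: the AP-2 forms GCCNNNGGC and GCCNNNNGGC, the A/T-rich AATATT and the homeodomain core TAATTA.
Tfap2b: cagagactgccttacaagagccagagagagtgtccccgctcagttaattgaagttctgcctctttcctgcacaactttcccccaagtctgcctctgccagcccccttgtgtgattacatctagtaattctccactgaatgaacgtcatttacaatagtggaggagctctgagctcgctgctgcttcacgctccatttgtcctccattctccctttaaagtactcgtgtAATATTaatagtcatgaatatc
Sall1: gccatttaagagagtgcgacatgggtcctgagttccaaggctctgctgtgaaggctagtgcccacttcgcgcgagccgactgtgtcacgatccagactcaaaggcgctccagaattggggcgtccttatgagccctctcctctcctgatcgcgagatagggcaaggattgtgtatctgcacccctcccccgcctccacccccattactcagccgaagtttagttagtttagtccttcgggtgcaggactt
Tfap2a: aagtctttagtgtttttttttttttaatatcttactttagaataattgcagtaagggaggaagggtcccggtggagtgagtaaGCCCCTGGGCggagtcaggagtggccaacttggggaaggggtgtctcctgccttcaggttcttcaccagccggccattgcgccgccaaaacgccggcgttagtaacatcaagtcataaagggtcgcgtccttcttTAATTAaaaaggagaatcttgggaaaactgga
*Tfap2a* held 1 match to GCCNNNNGGC, with its first base 167 bases before the start, and 1 to TAATTA, 32 bases before it. *Tfap2b* held 1 match to AATATT, 22 bases before its start, and the *Sall1* window held none of the 4. Over all 32851 promoter windows of this length, 13.7% had a GCCNNNGGC, 12.3% a GCCNNNNGGC, 6.17% an AATATT and 4.84% a TAATTA. The GC content was 46.4% for *Tfap2b*, 56.4% for *Sall1* and 47.6% for *Tfap2a*, against a median of 52.4%. Of the promoter windows listed for each gene, those shown are the farthest upstream, although the annotated *Tfap2a* and *Tfap2b* genes begin farther upstream still. *Sall1* has 2 others, with 78.4% and 74.4% GC, and *Tfap2a* 1 other, with 60.4%, and none of these held a match. These letters describe the windows only, and no binding was measured.

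The libraries held between 20316583 and 29162751 counts (median 25554498), so that 3 counts, taken here as the floor of detection, were far below the levels of all members but *Tfap2b* and *Tfap2c* in their lowest populations. Replicates differed by more than counting noise in each of 13 pairs (chi-square per degree of freedom 7.8 to 76.3), and OCP replicate 2 stood most apart. The sort markers followed the labels: *Jag1* was at 296.2 ± 67.9 CPM (read counts relative to the library's scaled total, SD, n = 3) in S9-JAG1+ LMPs and at 11.8 ± 1.36 in S9-Pαhi LMPs, and *Col2a1* was highest in chondroblasts. *Jag1* also reached 119.5 ± 17.5 CPM in chondroblasts, which were not gated on JAG1. S9-SCA-1+ libraries had 1553.7 and 1554.1 CPM summed over 8 myogenic progenitor genes, against at most 16.1 in any other library. They also had the most red blood cell transcripts, with 116.5 CPM in replicate 2 and 3233.7 in replicate 3. In bulk libraries, fewer cells that express a gene and less RNA per cell cannot be told apart.

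Of the 7 genes, 6 differed among the 5 populations and 1, *Sall2*, did not reach the fold limit. In a joint edgeR quasi-likelihood test, 29.2% of all tested genes were called, that is, had an adjusted p of at most 0.1 and a largest difference of at least 1.2 on the log2 scale. All 6 called members were highest in S9-JAG1+ LMPs, and in each of them the 3 S9-JAG1+ libraries lay above the other 11. The share of all tested genes with this separation was not counted. The 6 members fell into 4 groups by what came next below that level. *Tfap2b* and *Sall1* came next in chondroblasts, *Tfap2a* and *Tfap2c* in S9-Pαhi LMPs, and *Sall3* was level in all but the S9-SCA-1+ cells, whereas *Sall4* came next in S9-SCA-1+ cells and was lowest in chondroblasts. *Tfap2a* and *Tfap2c* parted further down, *Tfap2a* being lowest in S9-SCA-1+ cells and *Tfap2c* in OCPs and chondroblasts.

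**Figure D1:**
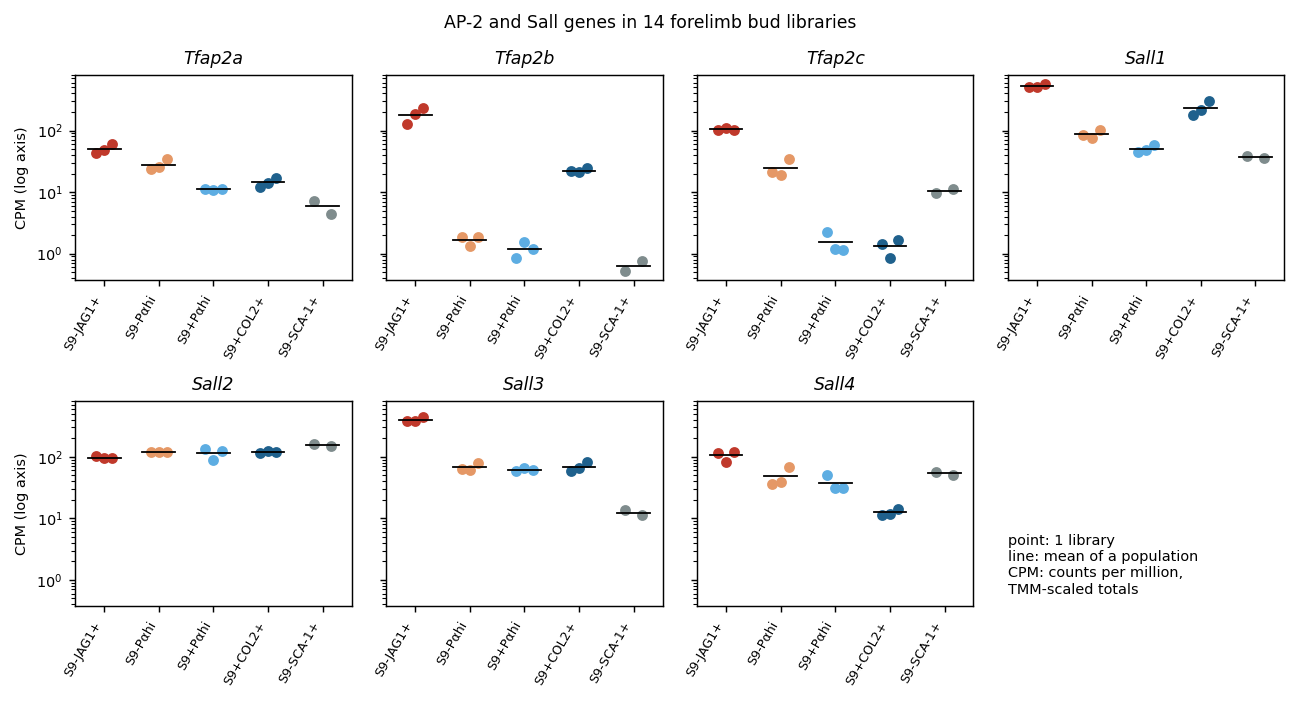
CPM on a log axis (TMM-scaled library totals) of the 7 genes in each of the 14 libraries, by population; points are libraries and lines population means. For every gene but *Sall2* the 3 S9-JAG1+ libraries are the highest, *Tfap2b* spans the widest range and *Sall2* stays between 90 and 163.3 CPM.

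*Tfap2b* (AP-2β) had the widest range of the family. The S9-JAG1+ libraries stood at 129.7, 182.9 and 230.7 CPM and the chondroblast libraries at 21.6, 20.9 and 24.4 CPM. The remaining populations were low: 1.83, 1.35 and 1.89 CPM in S9-Pαhi LMPs, 0.852, 1.52 and 1.19 in OCPs, and 0.525 and 0.748 in S9-SCA-1+ cells, from 15 to 45 counts a library. The groups of high, middle and low libraries did not overlap. *Tfap2b* was 8.12-fold higher in S9-JAG1+ LMPs than in chondroblasts by the ratio of means (log2 fold change 3.02 ± 0.19 SE, adjusted p = 2.08e-08). Chondroblasts in turn exceeded S9-Pαhi LMPs by 3.73 ± 0.23 on the log2 scale (adjusted p = 7.30e-08) and OCPs by 4.24 ± 0.24 (adjusted p = 1.98e-07). S9-Pαhi LMPs and OCPs overlapped and were not distinguished (0.51 ± 0.30, adjusted p = 0.278). S9-Pαhi LMPs exceeded S9-SCA-1+ cells by 1.39 ± 0.37 (adjusted p = 0.0124), a call that was lost without SCA-1+ replicate 2 (1.16, adjusted p = 0.118).

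*Tfap2c* (AP-2γ; chr2:172545678-172558622, plus strand) shared the high level in S9-JAG1+ LMPs, but its second place was held by S9-Pαhi LMPs and not by chondroblasts. It measured 102.4, 109.6 and 103.0 CPM in S9-JAG1+ LMPs and 20.9, 19.1 and 34 CPM in S9-Pαhi LMPs. In S9-SCA-1+ cells it was at 9.58 and 11.3 CPM. OCPs (2.23, 1.19 and 1.16 CPM) and chondroblasts (1.41, 0.855 and 1.65 CPM) formed the low end and overlapped each other. Thus both Sox9-reporter-positive populations lay below all 3 reporter-negative ones, with no overlap. The step from S9-JAG1+ to S9-Pαhi LMPs was 2.10 ± 0.22 on the log2 scale (adjusted p = 9.52e-06), and that from S9-Pαhi LMPs to OCPs, which share the PDGFRα gate and differ by the reporter and by the gating on JAG1 and SCA-1, was 4.00 ± 0.28 (adjusted p = 8.29e-07). S9-Pαhi LMPs also exceeded S9-SCA-1+ cells (1.23 ± 0.25, adjusted p = 0.00243), but this fell under the fold limit without S9-Pαhi replicate 3 (0.93) or SCA-1+ replicate 2 (1.12). OCPs and chondroblasts differed by 0.24 ± 0.34 (adjusted p = 0.644).

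*Tfap2a* (AP-2α) had the smallest steps of the 3. It was at 42.8, 49.1 and 59.5 CPM in S9-JAG1+ LMPs and at 24, 25.6 and 34.5 CPM in S9-Pαhi LMPs. Chondroblasts had 12, 14.2 and 16.8 CPM, OCPs 11.3, 11 and 11.1 CPM, and S9-SCA-1+ cells 7.27 and 4.38 CPM. No libraries of neighbouring populations overlapped, yet none of the 4 steps between neighbours reached the fold limit. The largest were 0.97 ± 0.19 between S9-Pαhi LMPs and chondroblasts (adjusted p = 0.000865) and 0.93 ± 0.23 between OCPs and S9-SCA-1+ cells (adjusted p = 0.00552). The second of these rose to 1.34 without SCA-1+ replicate 2. Over 2 steps, S9-JAG1+ LMPs exceeded chondroblasts by 1.82 ± 0.19 (adjusted p = 2.00e-06) and S9-Pαhi LMPs exceeded OCPs by 1.33 ± 0.19 (adjusted p = 0.000394), or 1.16 and no longer called without S9-Pαhi replicate 3. Chondroblasts exceeded S9-SCA-1+ cells by 1.30 ± 0.23 (adjusted p = 0.000273), a call lost without chondroblast replicate 3 (1.13) or SCA-1+ replicate 3 (0.98). Of the annotated exon bases of *Tfap2a*, 14.6% overlap antisense genes. *Gm26688*, the antisense gene in the table, had 4.2 to 9.09% as many counts as *Tfap2a* in a library. As use of strand in counting is not stated, reads in that overlap cannot be assigned with certainty.

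*Sall1* reached the highest level of any member, in S9-JAG1+ LMPs. S9-JAG1+ LMPs had 518.4, 509.9 and 572.3 CPM and chondroblasts 178.3, 216.3 and 302.9 CPM. S9-Pαhi LMPs had 83.8, 76.3 and 102.4 CPM, OCPs 45.3, 48.1 and 57.8 CPM, and S9-SCA-1+ cells 38.4 and 35.4 CPM. The order of populations was that of *Tfap2b*, on a higher floor and with no overlap between neighbours. Chondroblasts exceeded S9-Pαhi LMPs by 1.41 ± 0.17 (adjusted p = 1.76e-05) and OCPs by 2.20 ± 0.17 (adjusted p = 1.67e-06). The first of these was 1.13, and not called, without chondroblast replicate 3. S9-JAG1+ LMPs exceeded chondroblasts by 1.198 ± 0.16 (adjusted p = 2.60e-05), just under the fold limit, and went past it in 7 of the 14 fits that each left out 1 library. S9-Pαhi LMPs and S9-SCA-1+ cells differed by 1.24 ± 0.19 (adjusted p = 0.000252), which fell to 1.12 without S9-Pαhi replicate 3 and to 1.19 without SCA-1+ replicate 3. S9-Pαhi LMPs and OCPs (0.79 ± 0.17, adjusted p = 0.00635) and OCPs and S9-SCA-1+ cells (0.45 ± 0.19, adjusted p = 0.0747) did not reach the fold limit.

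*Sall3* (chr18:80966989-80987021, minus strand) had a 3-level pattern. It stood at 379.1, 383.3 and 436.9 CPM in S9-JAG1+ LMPs and at 13.6 and 11.2 CPM in S9-SCA-1+ cells. Between them the 3 other populations overlapped, with 63.7, 60.7 and 78.9 CPM in S9-Pαhi LMPs, 58.8, 65.3 and 61.7 in OCPs, and 59.5, 67 and 81.1 in chondroblasts. These 3 differed by no more than 0.16 on the log2 scale, with SEs of 0.12 and adjusted p from 0.367 to 0.857. The upper step, S9-JAG1+ LMPs against chondroblasts, was 2.53 ± 0.13 (adjusted p = 4.46e-09), and the lower one, OCPs against S9-SCA-1+ cells, was 2.32 ± 0.16 (adjusted p = 8.16e-08). Unlike *Sall1*, *Sall3* did not separate chondroblasts from OCPs (0.16 ± 0.12, adjusted p = 0.367).

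*Sall4* (chr2:168748332-168767201, minus strand) was lowest where *Sall1* was second highest. It measured 116.1, 82.1 and 118.1 CPM in S9-JAG1+ LMPs, 57.5 and 51 in S9-SCA-1+ cells, 36.7, 38.6 and 68.6 in S9-Pαhi LMPs and 50.8, 31.5 and 31.3 in OCPs. Chondroblasts were at 11.4, 11.9 and 14.1 CPM, below every other library. The S9-Pαhi libraries overlapped those of S9-SCA-1+ cells and of OCPs, and the 3 populations were not distinguished from each other (differences of 0.18 to 0.52, adjusted p from 0.136 to 0.684). OCPs exceeded chondroblasts by 1.60 ± 0.25 (adjusted p = 0.000423), and S9-JAG1+ LMPs exceeded OCPs by 1.48 ± 0.24 (adjusted p = 0.00024). The differences of S9-JAG1+ LMPs from S9-Pαhi LMPs (1.14 ± 0.24, adjusted p = 0.00332) and from S9-SCA-1+ cells (0.96 ± 0.27, adjusted p = 0.017) were under the fold limit, the former reaching 1.49 without S9-Pαhi replicate 3 and 1.29 without S9-JAG1+ replicate 2. An antisense gene, *Gm14261*, overlaps 9.5% of the exon bases of *Sall4*.

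*Sall2* (chr14:52311177-52328670, minus strand) stayed within a narrow band. Its levels were 101.6, 94.9 and 94.8 CPM in S9-JAG1+ LMPs, 118.8, 118.2 and 120.7 in S9-Pαhi LMPs, 132.7, 90 and 126.4 in OCPs and 113.9, 123.4 and 119.3 in chondroblasts. S9-SCA-1+ cells had 163.3 and 151.7 CPM, above all other libraries. The highest library exceeded the lowest 1.81-fold, against 10.4-fold for *Sall4* and 439.8-fold for *Tfap2b*, the narrowest and the widest ranges of the other members. The largest difference was that of S9-JAG1+ LMPs from S9-SCA-1+ cells, by -0.70 ± 0.12 (adjusted p = 0.000681), and the joint test gave an adjusted p of 0.00324. It was thus lowest in the population where the other 6 were highest, at sizes under the fold limit.

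Each population was then compared with the mean of the other 4 on the log2 scale. In S9-JAG1+ LMPs 6 of 7 members rose and none fell, where 2.88% of all tested genes were called higher and 7.7% lower. The log2 fold changes were 6.29 ± 0.15 for *Tfap2b*, 4.46 ± 0.16 for *Tfap2c*, 3.20 ± 0.09 for *Sall3*, 2.77 ± 0.12 for *Sall1*, 1.99 ± 0.13 for *Tfap2a* and 1.66 ± 0.17 for *Sall4* (adjusted p from 4.39e-12 to 4.06e-06), and -0.39 ± 0.09 for *Sall2* (adjusted p = 0.0039). The value of *Sall4* was 1.19, under the limit, when the chondroblasts were left out. In S9-Pαhi LMPs *Tfap2c* rose by 1.84 ± 0.17 (adjusted p = 8.06e-06) and *Tfap2b* changed by -2.14 ± 0.23 (adjusted p = 2.51e-05), where 1.53% of genes were called higher and 2.31% lower. The change of *Tfap2c* was 1.06, and not called, without chondroblasts, and the mean of the others to which *Tfap2b* was compared holds the high S9-JAG1+ and chondroblast levels.

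In OCPs 3 members fell and none rose, where 3.37% of genes were called higher and 1.64% lower: *Tfap2c* changed by -3.16 ± 0.25, *Tfap2b* by -2.78 ± 0.24 and *Sall1* by -1.49 ± 0.15 (adjusted p from 1.08e-06 to 6.01e-06). *Tfap2a* was at -0.74 ± 0.16 (adjusted p = 0.00457) and passed the limit, at -1.30, when the S9-SCA-1+ cells were left out. In chondroblasts each family was split. *Tfap2b* (2.52 ± 0.16) and *Sall1* (1.27 ± 0.12) rose while *Tfap2c* (-3.45 ± 0.26) and *Sall4* (-2.19 ± 0.22) fell (adjusted p from 1.78e-08 to 2.00e-06), where 11% of genes were called higher and 1.71% lower. The rise of *Sall1* rested on the S9-SCA-1+ cells (0.80 without them) and on chondroblast replicate 3 (1.00 without it). In S9-SCA-1+ cells 4 members fell and none rose, where 4.46% of genes were called higher and 6.8% lower: *Tfap2b* (-3.89 ± 0.30), *Sall3* (-3.07 ± 0.15), *Sall1* (-2.05 ± 0.18) and *Tfap2a* (-1.90 ± 0.21), with adjusted p from 1.67e-09 to 6.56e-06. *Sall4* (0.47 ± 0.21), *Sall2* (0.49 ± 0.10) and *Tfap2c* (0.30 ± 0.21) did not reach the limit there.

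**Figure D2:**
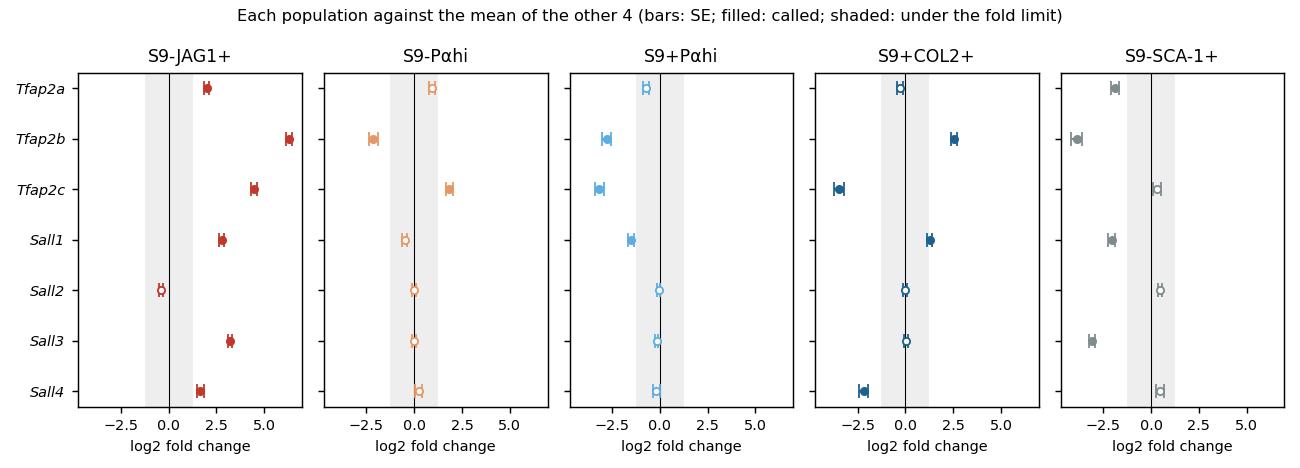
Log2 fold change (x axis) of each gene (y axis) in each population against the mean of the other 4; bars are SEs, filled points are called and the shaded band holds changes under the fold limit of 1.2. S9-JAG1+ LMPs have 6 filled points, all to the right, chondroblasts have 2 on either side, and *Sall2* is open throughout.

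Among the 70 combinations of a member and a pair of populations, 42 were called. Shares over all genes are given below for each pair and were not taken for the 10 pairs together. *Tfap2c* was called in 9 of 10 pairs, *Tfap2b* in 8, *Sall1* and *Sall3* in 7 each, *Tfap2a* in 6, *Sall4* in 5 and *Sall2* in 0. The adjusted p of *Sall2* was at most 0.0792 in 7 of its pairs, with differences of at most 0.70. S9-JAG1+ LMPs were the higher side of every called member in their 4 pairs. These calls numbered 4 against S9-Pαhi LMPs (2.58% of all tested genes were called in that direction), 6 against OCPs (3.46%), 5 against chondroblasts (4.17%) and 5 against S9-SCA-1+ cells (4.91%). Between S9-Pαhi LMPs and OCPs only *Tfap2a* and *Tfap2c* were called, both higher in S9-Pαhi LMPs (1.36% of genes in that direction). Between S9-Pαhi LMPs and chondroblasts *Tfap2c* and *Sall4* were higher in the former and *Tfap2b* and *Sall1* in the latter (12.7% of genes in either direction). Between OCPs and chondroblasts *Sall4* was higher in OCPs and *Tfap2b* and *Sall1* in chondroblasts (7.77% in either direction). Against S9-SCA-1+ cells, S9-Pαhi LMPs were higher for 5 members (5.58% in that direction), and OCPs were higher for *Sall3* and lower for *Tfap2c* (12.8% in either direction). Chondroblasts were higher than S9-SCA-1+ cells for *Tfap2a*, *Tfap2b*, *Sall1* and *Sall3* and lower for *Tfap2c* and *Sall4* (19.4% in either direction).

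**Figure D3:**
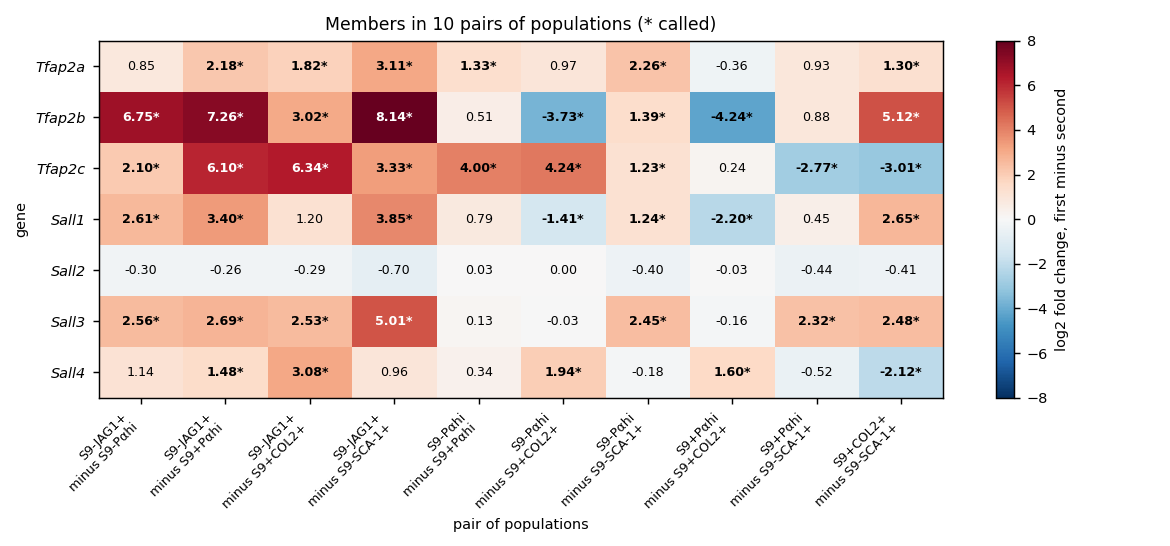
Log2 fold changes (colour and number, first population minus second) of the 7 genes (rows) in the 10 pairs of populations (columns), with calls starred. The first 4 columns, with S9-JAG1+ LMPs, hold 20 of the 42 calls, and the row of *Sall2* holds none.

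The makeup of each family was compared per kilobase of counted exon. The AP-2 sum was 74.9 ± 10.1 CPM per kb (SD, n = 3) in S9-JAG1+ LMPs, 15.4 ± 4.09 in S9-Pαhi LMPs, 7.51 ± 0.941 in chondroblasts, 4.99 ± 0.0963 (n = 2) in S9-SCA-1+ cells and 3.52 ± 0.195 in OCPs. Its leading gene changed with the population. *Tfap2c* made up 46.2 ± 6.08% of the sum in S9-JAG1+ LMPs and *Tfap2b* 36.7 ± 5.54%, with *Tfap2a* at 17.1 ± 0.819%. In S9-JAG1+ replicate 3, however, *Tfap2b* (42.1%) was ahead of *Tfap2c* (39.9%). In S9-Pαhi LMPs *Tfap2b* was 1.73 ± 0.359%, and *Tfap2c* (51.5 ± 3.46%) and *Tfap2a* (46.8 ± 3.4%) shared the rest. *Tfap2a* made up 80.8 ± 3.32% in OCPs. In chondroblasts *Tfap2a* (48.5 ± 3.38%) and *Tfap2b* (45.9 ± 2.51%) were alike in share, and *Tfap2c* was 5.64 ± 1.51%. *Tfap2c* led again in S9-SCA-1+ cells, with 68.4 ± 9.36%. *Tfap2d* had no count in any library and *Tfap2e* at most 2, so that the family here was these 3 genes.

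The Sall sum was 198.5 ± 13.6 CPM per kb in S9-JAG1+ LMPs, 79 ± 14.4 in chondroblasts, 58.3 ± 7.66 in S9-Pαhi LMPs, 49 ± 3.09 (n = 2) in S9-SCA-1+ cells and 47.8 ± 5.43 in OCPs. *Sall1* supplied 51.1 ± 0.782% of it in S9-JAG1+ LMPs and 55.4 ± 5% in chondroblasts. *Sall2*, whose own level hardly moved, ranged from 9.2 ± 0.763% in S9-JAG1+ LMPs to 60.2 ± 0.667% in S9-SCA-1+ cells, and led in S9-Pαhi LMPs (38.7 ± 4.36%) and OCPs (45.3 ± 4.18%). *Sall3* was 29.2 ± 0.945% in S9-JAG1+ LMPs, 12.8 to 19% in S9-Pαhi LMPs, OCPs and chondroblasts, and 3.66 ± 0.277% in S9-SCA-1+ cells. *Sall4* was 21.8 ± 0.468% in S9-SCA-1+ cells and 3.14 ± 0.225% in chondroblasts. These shares describe transcripts per length and were not tested.

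**Figure D4:**
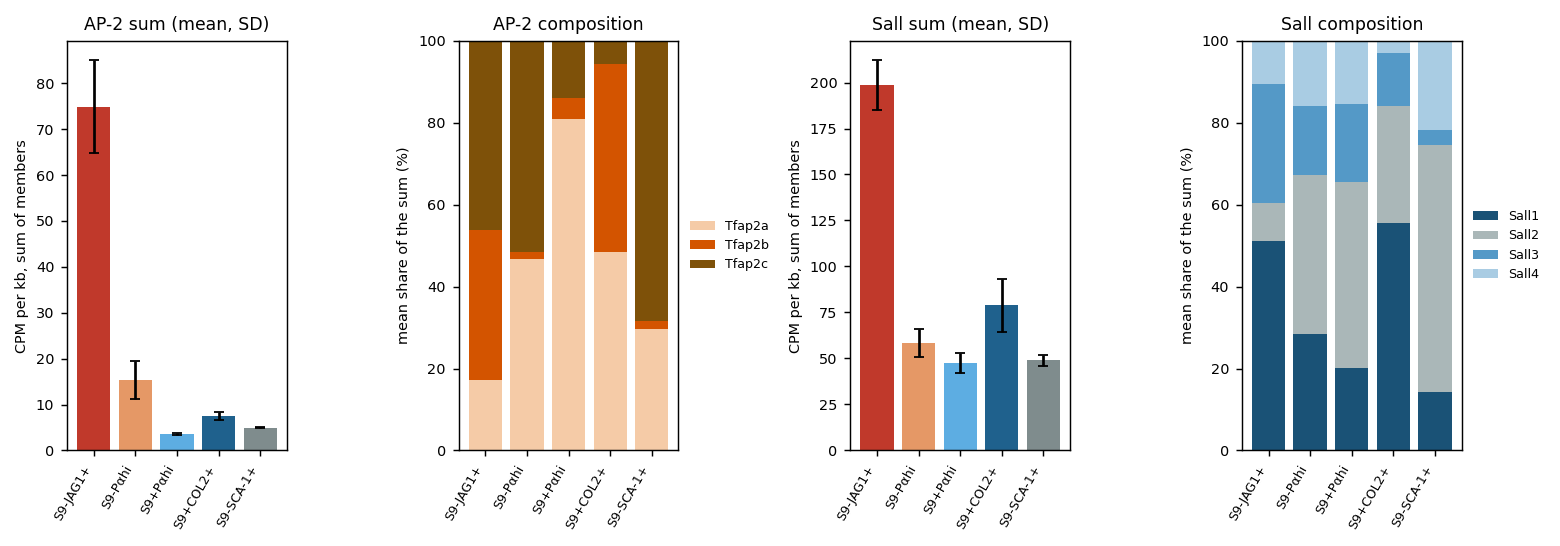
Sums of the AP-2 and Sall genes in CPM per kb (bars, mean with SD over 3 libraries, 2 for S9-SCA-1+ cells) and the mean share of each gene in its family's sum in percent (stacked bars), by population. Both sums are highest in S9-JAG1+ LMPs, *Tfap2a* fills most of the AP-2 sum in OCPs and *Sall2* most of the Sall sum in S9-SCA-1+ cells.

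Within a population, the members' highest values were not spread evenly over libraries. S9-Pαhi replicate 3 was the highest of its group for 7 of 7 members and chondroblast replicate 3 for 6 of 7. S9-JAG1+ replicate 3 was highest for 5 of 7. How often these libraries were highest over all genes was not counted, so whether these numbers are particular to the members is not known. Some leads in S9-Pαhi replicate 3 were slight, as for *Sall2* (120.7 CPM against 118.8 and 118.2) and *Tfap2b* (1.89 CPM against 1.83 and 1.35). The widest ratio between replicates was 1.93 for *Tfap2c*, in chondroblasts, 1.87 for *Sall4*, in S9-Pαhi LMPs, 1.79 for *Tfap2b*, in OCPs, and 1.7 for *Sall1*, in chondroblasts. Over 8 proximal and anterior limb bud genes, which include *Meis1*, *Meis2* and *Pax1*, the summed level was 119.6 CPM in chondroblast replicate 3 against 309.2 and 410.3 in the others, and 76.4 in S9-JAG1+ replicate 3 against 121.0 and 180.3. Over 8 distal and posterior genes, which include *Shh* and *Hoxd13*, it was 1386.5 CPM in chondroblast replicate 3 against 973.3 and 1237.0, and 3270.1 in S9-JAG1+ replicate 3 against 2450.8 and 2754.4. In S9-Pαhi replicate 3 the distal and posterior sum, at 925.7 CPM, lay between those of the other 2 libraries (872.8 and 990.4), and the proximal and anterior sum was the lowest (634.7 against 772.3 and 783.2). The part of these differences in the members' levels was not tested.

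The genes most like each called member were taken by Pearson's r of log2 CPM over the 14 libraries, among 11885 genes. Libraries of a population share their sort, so these values describe patterns and carry no test. *Tfap2b* was most like *Rgs9*, a regulator of G protein signalling (r = 0.976), *Hoxa13*, a patterning gene of the hand plate (0.975), and *Jag1* itself (0.966), by which the cells were sorted. *Sall1* was most like *Hoxd13* (0.980) and *Hoxa13* (0.979), and then the lipid kinase gene *Dgkk* (0.977). *Hoxd13* stood at 991.9 ± 207.4 CPM in S9-JAG1+ LMPs, 301.7 ± 66.2 in chondroblasts, 71.5 ± 8.67 in S9-Pαhi LMPs, 25.3 ± 5.4 in OCPs and 6.79 ± 0.0115 in S9-SCA-1+ cells, the order of *Sall1*.

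*Tfap2c* was most like *Shh*, the ligand of the polarizing region (0.984), *Gnai1*, which encodes an inhibitory G protein subunit (0.981), and *Focad* (0.979). *Shh* was at 63.6 ± 10.1 CPM in S9-JAG1+ LMPs, 16 ± 2.71 in S9-Pαhi LMPs, 2.03 ± 0.55 in S9-SCA-1+ cells and about 0.2 in both reporter-positive populations. *Sall3* was most like *Cyp26b1*, whose product degrades retinoic acid (0.987), and then the ephrin receptor gene *Epha1* (0.980). *Cyp26b1* stood at 833.7 ± 39 CPM in S9-JAG1+ LMPs, between 204.5 and 242.3 in the next 3 populations and at 43.1 ± 6.11 in S9-SCA-1+ cells. *Sall4* was most like *Arid3a* (0.984), which encodes a DNA-binding protein, *Trim71* (0.981), a gene of the heterochronic pathway, and *Hnrnpu* (0.977), an RNA-binding protein gene whose levels spanned a narrow range, from 1213.9 ± 30 CPM in chondroblasts to 2131.4 ± 72.1 in S9-JAG1+ LMPs. *Tfap2a* was most like the integrin gene *Itga1* (0.976), the netrin receptor gene *Unc5b* (0.973) and the kinase gene *Sik3* (0.970).

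Among the members themselves, *Tfap2b* and *Sall1* were the most alike (r = 0.98), followed by *Tfap2a* and *Sall3* (0.90). *Tfap2c* and *Sall4* had 0.84, whereas *Sall1* and *Sall4* had 0.15 and *Tfap2b* and *Sall4* 0.17. *Sall2* had negative values with the other 6, from -0.84 with *Sall3* to -0.18 with *Sall4*. *Tfap2a* and *Tfap2c* had 0.70 over all libraries and 0.96 without the S9-SCA-1+ cells, in which *Tfap2c* was above and *Tfap2a* below its OCP level.

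**Figure D5:**
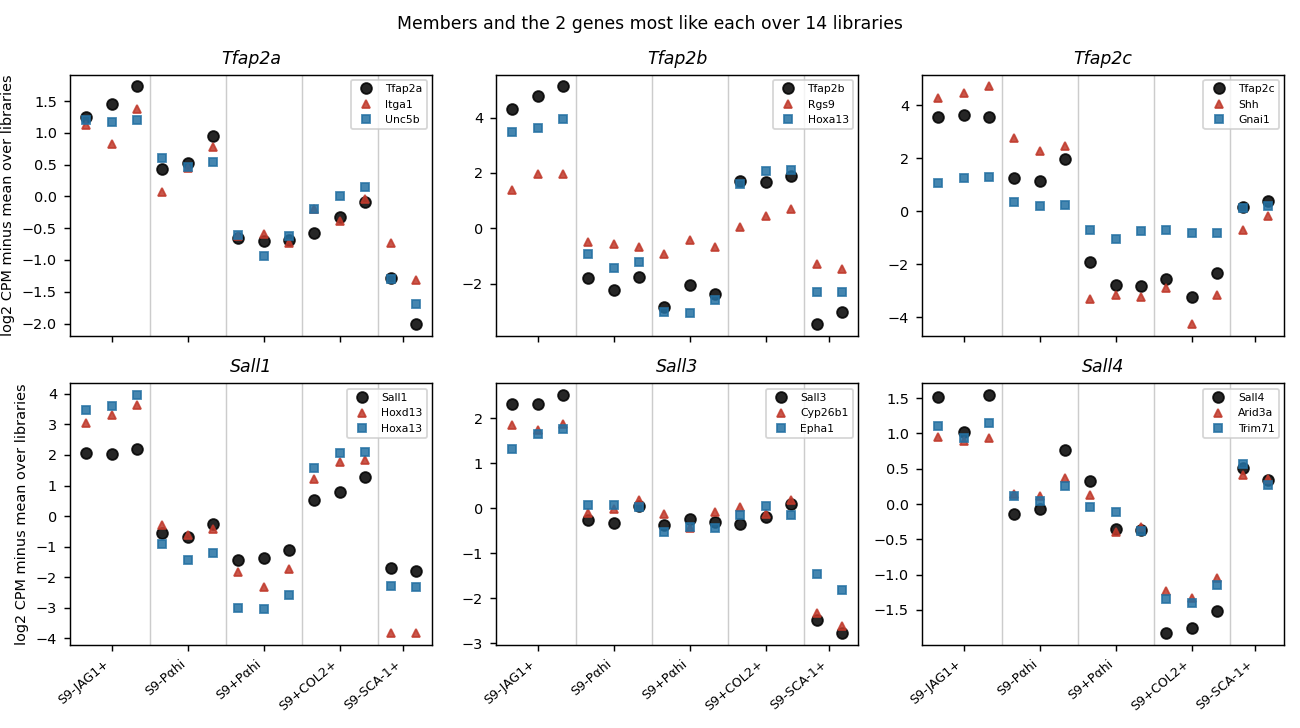
Log2 CPM minus the mean over 14 libraries (y axis) of 6 members (black circles) and the 2 genes most like each (coloured), with libraries grouped by population along the x axis. *Hoxa13* and *Hoxd13* share with *Tfap2b* and *Sall1* the second level in chondroblasts, and *Shh* shares with *Tfap2c* the second level in S9-Pαhi LMPs.

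Partners of AP-2 proteins moved less than the AP-2 genes. Of 10 listed genes (paralogs, coactivators and inhibitors) 7 were tested, and 1 rose in S9-JAG1+ LMPs: *Cited1*, a coactivator gene (1.41 ± 0.14, adjusted p = 2.31e-06), at 29.6 ± 7.65 CPM there and 8.31 to 14.8 elsewhere. None was called in the 4 other populations. The median log2 fold change in S9-JAG1+ LMPs was 0.02, against -0.01 over all genes. None of the 14 NuRD subunit genes was called in any of the 5 populations. Their medians were between -0.33, in chondroblasts, and 0.14, in S9-JAG1+ LMPs, and all were expressed, with 4078.6 to 4858.6 CPM in sum. The largest change was that of *Chd3*, at 1.06 ± 0.12 in chondroblasts (adjusted p = 4.32e-06), under the fold limit, although it was called in the pairs of chondroblasts with S9-JAG1+ LMPs and with S9-SCA-1+ cells.

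Of 16 limb genes linked to Sall factors, all tested, 8 rose and 2 fell in S9-JAG1+ LMPs (median 1.19). The largest changes were those of *Shh* (5.84 ± 0.15), *Hoxa13* (4.84 ± 0.12), *Hoxd13* (4.5 ± 0.13) and *Hoxd12* (3.3 ± 0.13). These genes and *Hand2*, which also rose, are on the distal and posterior list below as well. Those that fell, *Irx3* and *Irx5*, are also on the proximal and anterior list, so the lists are not separate results. Over all tested genes 2.88% were called higher and 7.7% lower in S9-JAG1+ LMPs, and 4.46% and 6.8% in S9-SCA-1+ cells. In S9-SCA-1+ cells 10 of the 16 fell and 1 rose (median -2.01), led by *Hoxd13* (-4.49 ± 0.25), *Hoxd12* (-4.38 ± 0.26), *Hand2* (-3.82 ± 0.16) and *Tbx5* (-3.81 ± 0.19), the forelimb gene. *Crbn*, whose human form targets SALL4 for degradation in the presence of thalidomide, was level, between 61.3 and 64.8 CPM. Of 10 stem cell partners of Sall4 only 5 were tested. *Pou5f1*, *Nanog*, *Sox2*, *Utf1* and *Dppa4* were each under 1 CPM in all 5 populations. In chondroblasts, where *Sall4* was lowest, 3 of the 5 fell: *Lin28a* (-4.91 ± 0.80), *Mycn* (-1.72 ± 0.14) and *Lin28b* (-1.66 ± 0.12). In S9-JAG1+ LMPs *Mycn* rose (1.42 ± 0.12). *Lin28a* varied widely between replicates there (20.9 ± 11.9 CPM), and more so in S9-Pαhi LMPs (19.4 ± 20.1) and OCPs (27.6 ± 24.4). It rose in S9-SCA-1+ cells (3.16 ± 0.50), at 93 CPM.

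All 8 distal and posterior limb bud genes rose in S9-JAG1+ LMPs (median 3.90), and 5 of 8 proximal and anterior genes fell with none rising (median -1.65). The former were led by *Shh*, *Evx1* (5.51 ± 0.19), *Hoxa13* and *Hoxd13*, the latter by *Meis1* (-2.12 ± 0.39), *Meis2* (-2.05 ± 0.45), *Pax9* (-1.99 ± 0.35) and *Irx5* (-1.79 ± 0.51). In chondroblasts 4 distal genes rose, *Hoxa13*, *Hoxd13*, *Hoxd12* and *Wnt5a*, and *Shh* and *Msx1* fell. *Tfap2b* and *Sall1* were high in both these populations, and *Tfap2c* in the first only. In S9-Pαhi LMPs, where *Tfap2c* rose, *Shh* (3.36 ± 0.16) and *Msx1* (2.25 ± 0.11) rose and *Hoxa13* fell, and 6 of 8 proximal and anterior genes rose, *Pax1* most (3.42 ± 0.53).

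Genes of other cell types in which AP-2 or Sall factors are known were measured beside them. The 16 surface ectoderm genes summed to 7.92 to 13.6 CPM in S9-JAG1+ LMPs, and 13 of them had a mean under 1 CPM there, with *Cdh1* and *Wnt7a* at 0. None rose in S9-JAG1+ LMPs and 2 fell. In chondroblasts 7 of the 9 tested rose, to a sum of 24.8 to 30.3 CPM. Neural crest and glia genes summed to 8 to 9.71 CPM in S9-JAG1+ LMPs and 26.1 to 35.4 in chondroblasts, where *Sox10* was at 2.78 CPM. In OCPs, where *Tfap2b* was near 1 CPM, *Sox10* was at 2.98 CPM. Of 10 germ cell genes 5 were tested and none was called in S9-JAG1+ LMPs, and *Dppa3* had no count in any library. *Prdm1*, a regulator of germ cell fate also used elsewhere, was at 6.52 ± 0.511 CPM there, rose in S9-Pαhi LMPs (2.67 ± 0.14, at 20 CPM) and S9-SCA-1+ cells (1.24 ± 0.17) and fell in OCPs (-2.54 ± 0.21) and chondroblasts (-2.02 ± 0.19). Its part in the level of *Tfap2c*, which was also low in OCPs and chondroblasts, was not tested. The myogenic genes that mark the S9-SCA-1+ libraries were led by *Met* (689.3 CPM), *Pax3* (463.1 CPM) and *Lbx1* (247.9 CPM). The part of these genes' cells in the low *Tfap2b*, *Sall1* and *Sall3* of S9-SCA-1+ cells was not tested. Between the 2 S9-SCA-1+ libraries the members differed by at most 1.66-fold, for *Tfap2a*, the widest ratio of that gene between replicates of any population. Red blood cell transcripts also differed between these libraries, at 116.5 and 3233.7 CPM in sum. Their part in the members' levels was not tested.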

How the data were processed

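Raw read counts per gene, deposited by the authors without normalization, were used for 14 libraries of 5 populations. The authors sequenced poly(A) RNA in single reads, aligned these with STAR to mm10 and used QuasR to count reads starting within RefSeq mRNA exons. The table's gene length served for values per kilobase only. The use of strand is not given in the sources used here.

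Entrez identifiers were matched to RefSeq symbols (24374 of 24454; the other 80 held 0.358% of counts). In R 4.3.3, edgeR 4.0.16 fitted a mean per population to all libraries with a quasi-likelihood model, after filterByExpr (15125 genes) and TMM scaling (factors 0.957 to 1.06). SEs of log2 fold changes were derived from the F statistics. Adjusted p values are Benjamini-Hochberg values across the tested genes, and calls needed an adjusted p of at most 0.1 and a log2 fold change of at least 1.2. CPM used the scaled totals, and log2 CPM a prior count of 2. Libraries of a group are separate pools of buds, so the tests measure the spread between pools.

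All 7 members are named. For each called member the 3 genes with the highest r (mean of at least 1 log2 CPM) and up to 4 called genes per list are named, except 1 gene that is not reported here; other genes were named after their values were seen. The members and lists were chosen with earlier results of these data known. Same-numbered libraries did not deviate together: 4 of 26 pairs had a correlation over 0.1 (range -0.181 to 0.308). On simulated counts with 200 genes changed 3-fold, S9-JAG1+ LMPs against the others recovered 198 with 2 false calls over 14722 genes. The simulation gave all genes the same dispersion and changed genes in S9-JAG1+ LMPs only, by more than the fold limit. It therefore checks that the fit runs correctly and does not measure its power or error on the real libraries. Alternatives were DESeq2 1.42.0 scaling or tests, library totals, other filters and limits, a replicate block and fewer libraries. Python 3.11.15, pandas 2.3.3, numpy 2.4.6 and matplotlib 3.10.9 were used for summaries and drawing. Promoter windows came from RefSeq (GRCm38.p6) for the 4 members with an entry, *Tfap2a*, *Tfap2b*, *Sall1* and *Sall2*.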

Additional observations from a re-analysis of the deposited data

How the results depend on the processing

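Of 336 log2 fold changes of members in single populations under alternative settings, 313 kept their direction and their side of the limits, as did 622 of 644 in pairs. The joint test called 6 members throughout and 7 with no fold limit. The 2 calls in S9-Pαhi LMPs became 1 without chondroblasts and 4 with no fold limit. Calls in S9-JAG1+ LMPs numbered 5 without chondroblasts, 7 with no fold limit and 6 under each other setting. The replicate block changed no call in a population (the value of *Sall3* in S9-Pαhi LMPs was 0.0070) and called 43 in place of 42 combinations in pairs, *Sall1* in S9-JAG1+ LMPs against chondroblasts (1.22) being added. Of the libraries, 5 of 14 were closest to their own number.

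Directions turned only for values that were not called. Without S9-SCA-1+ cells *Sall2* was 0.12 in S9-Pαhi LMPs, 0.057 in OCPs and 0.097 in chondroblasts, and *Sall3* was -0.79 in chondroblasts (adjusted p = 4.46e-05). Without chondroblasts *Sall3* and *Sall4* in S9-Pαhi LMPs were 0.017 and -0.32, and *Tfap2c* and *Sall4* in S9-SCA-1+ cells were -0.60 and -0.092. *Sall3* in S9-Pαhi LMPs was 0.0045 with DESeq2 size factors and 0.0046 with its test, and *Sall2* in chondroblasts was 0.081 with library totals. Leaving out 1 library gave *Sall2* -0.036 to 0.023 in S9-Pαhi LMPs, -0.16 to 0.099 in OCPs and -0.098 to 0.0039 in chondroblasts, *Sall3* -0.13 to 0.070 in S9-Pαhi LMPs and -0.13 to 0.11 in chondroblasts, and *Sall4* -0.11 to 0.40 in S9-Pαhi LMPs. In pairs, *Sall2* in S9-Pαhi LMPs against chondroblasts was -0.10 with library totals and -0.011 with a filter of 1 CPM in 3 libraries. Leaving out 1 library gave it -0.0040 to 0.070, *Sall3* in the same pair -0.15 to 0.14, *Sall2* and *Sall4* in S9-Pαhi LMPs against OCPs -0.11 to 0.14 and -0.0088 to 0.61, and *Tfap2c* and *Sall2* in OCPs against chondroblasts -0.14 to 0.45 and -0.13 to 0.16. The cause was not tested, beyond the smaller set of populations averaged. With 1 S9-SCA-1+ library left out, the other was assumed to vary like the other groups.

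Of the 18 genes most like a member, 17 stayed among the first 3 with a prior count of 0.5 (lowest place 4), and 5 without S9-SCA-1+ cells (lowest place 25, lowest r 0.955).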
